A study of Homo sapiens with 6 samples.

Results

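The 6 genes of collagen IV (COL4A1 to COL4A6) and the collagen XVIII gene COL18A1 were examined in MCF10A cells grown with or without growth factors. The 7 genes were taken by name as basement membrane collagens, the collagen IV genes were treated as 3 head-to-head pairs, and all 7 are among the 19198 genes listed in the table. MCF10A is an established, non-tumorigenic line of human breast epithelial cells, and the labels describe it as luminal ductal cells from fibrocystic breast tissue. The study used the removal of growth factors as a way to drive the cells toward a mesenchymal state without added TGFβ.

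The 3 control samples were grown in DMEM:F12 with 5% horse serum, 10 µg/ml insulin, 20 ng/ml EGF, 100 ng/ml cholera toxin and 0.5 µg/ml hydrocortisone. The 3 growth factor-depleted samples had the same basal medium and serum without those 4 additives, so serum was present in both groups and the additives cannot be told apart. The paper lists glutamine in the complete medium and does not name it for the depleted medium. It describes keeping cells without the additives until their shape changed. The labels do not give the time without growth factors for these samples and do not say that the replicates were separate cultures, so the p-values measure the spread between these samples. The values are normalized counts, reads per gene divided by a size factor of the sample, and the depth was 14515993 to 28672630 reads on genes in the controls and 7472418 to 24407075 in the depleted samples. In every sample 3 reads, taken as the floor of detection, were worth between 1.76 and 6.71 normalized counts, which covers counting error only. The luminal label was set beside markers: the controls carried all 6 listed basal epithelial markers (sum of 42471 to 65489 normalized counts) beside 7 of the 9 luminal markers (sum of 8935 to 18492), while ELF5 and PGR were not analysed here.

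Basement membranes are thin sheets under epithelia and around vessels, and collagen IV is the network that holds them together. Its chains assemble as triple helices inside the cell, and only some combinations form: COL4A1 and COL4A2 chains join in the trimer found in nearly all basement membranes, COL4A3, COL4A4 and COL4A5 chains join in the trimer best known from the kidney filter, and COL4A5 and COL4A6 chains join in a trimer known from epithelial and smooth muscle basement membranes, the breast duct among them. The genes of each pair lie head to head and are read in opposite directions from one short stretch of DNA. Collagen XVIII is a proteoglycan of basement membranes whose C-terminal fragment is endostatin, and COL18A1 is not paired with another collagen gene.

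Stretches at the starts are shown for the pairs because the DNA between the starts is shared by the genes of a pair. For COL4A3 and COL4A4 the part of it next to the start of COL4A4 is not shown. In RefSeq (GRCh38.p14) the starts of COL4A1 and COL4A2 were 127 bases apart, those of COL4A3 and COL4A4 419 bases and those of COL4A5 and COL4A6 380 bases. Gencode v44 puts the outermost starts 171 bases apart for COL4A3 and COL4A4, 341 for COL4A5 and COL4A6, and 1345 for COL4A1 and COL4A2, whose spans it lets overlap. The windows searched ran from 250 bases before to 50 bases after each start. All 7 genes had a window, with 2 each for COL4A6 and COL18A1. Capitals mark matches on either strand to the GC box (GGGCGG) and to the CCAAT box (CCAAT). The 4 stretches are the bases between the starts of COL4A1 and COL4A2 (chr13:110307158-110307283, read on the plus strand) and the 250 bases before the starts of COL4A3 (chr2:227164374-227164623, plus strand), COL4A5 (chrX:108439588-108439837, plus strand) and COL4A6 (chrX:108439459-108439708, minus strand), all from RefSeq.
COL4A1 and COL4A2: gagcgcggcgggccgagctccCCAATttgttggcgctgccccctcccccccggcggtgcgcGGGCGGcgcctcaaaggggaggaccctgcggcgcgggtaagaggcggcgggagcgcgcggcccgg
COL4A3: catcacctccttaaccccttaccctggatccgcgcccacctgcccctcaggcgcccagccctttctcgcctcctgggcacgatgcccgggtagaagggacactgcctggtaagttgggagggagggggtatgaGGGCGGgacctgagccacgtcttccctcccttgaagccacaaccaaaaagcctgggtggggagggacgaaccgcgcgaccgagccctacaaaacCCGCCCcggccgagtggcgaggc
COL4A5: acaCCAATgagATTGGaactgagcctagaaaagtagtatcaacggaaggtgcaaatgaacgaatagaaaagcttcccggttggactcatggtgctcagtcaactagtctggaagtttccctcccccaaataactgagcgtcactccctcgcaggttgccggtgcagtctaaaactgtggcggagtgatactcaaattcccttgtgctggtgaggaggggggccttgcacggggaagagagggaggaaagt
COL4A6: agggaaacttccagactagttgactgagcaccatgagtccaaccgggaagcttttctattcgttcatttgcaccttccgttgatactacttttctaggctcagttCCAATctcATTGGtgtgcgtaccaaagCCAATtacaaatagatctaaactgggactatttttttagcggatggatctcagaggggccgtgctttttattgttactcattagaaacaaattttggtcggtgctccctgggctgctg

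The promoter windows of the 3 pairs differed in composition. The window of COL4A1 was 76.7% G and C and that of COL4A2 77.7%, against a median of 58.7% over 35116 RefSeq windows. COL4A3 was at 67.7% and COL4A4 at 74.0%, whereas COL4A5 was at 49.3% and COL4A6 at 43.7%. COL4A1 and COL4A2 shared 1 GC box and 1 CCAAT box between their starts, and the window of COL4A1 held a second GC box further up. COL4A3 held 2 GC boxes, and the window of COL4A4 held no match to any motif searched. COL4A5 held 2 CCAAT boxes, both also in the window of COL4A6, which held 3. The first window of COL18A1 was 86.7% G and C with 9 GC boxes, some of them overlapping, and the second windows of COL4A6 and COL18A1 held 1 GC box each. A GC box was in 45.0% of all windows and a CCAAT box in 34.6%, so single matches of this kind are common. TATAAA was in 11.5% of all windows and among these genes in the second window of COL18A1 alone. The RUNX core TGTGGT (13.1% of all windows) and the AP-1 site TGANTCA (7.71%) had no match in these windows, which says only that these letters are not there. The RUNX variant TGCGGT, which occurs in the window of COL4A4, was not searched for, so absence of RUNX sites cannot be read from this.

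**Figure D1:**
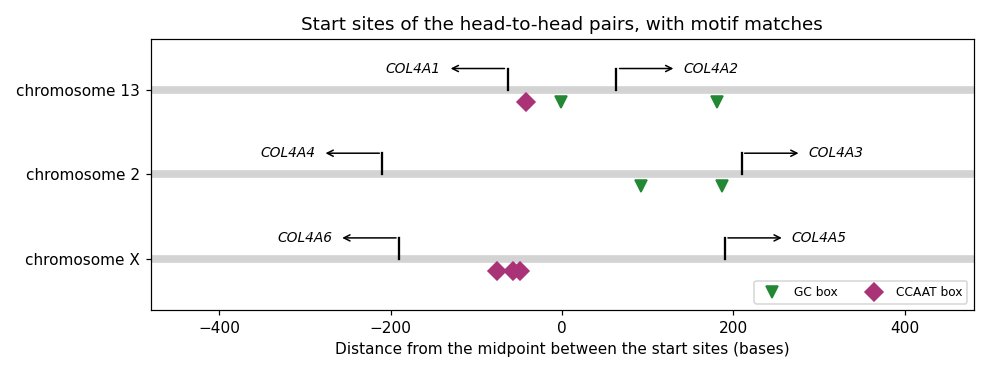
Starts of the 3 head-to-head collagen IV pairs (arrows, pointing in the direction of reading) along the distance in bases from the midpoint between the starts, with GC box (triangles) and CCAAT box (diamonds) matches found in the promoter windows. The starts lie 127, 419 and 380 bases apart, GC boxes occur at the pairs of chromosomes 13 and 2, and CCAAT boxes at the pairs of chromosomes 13 and X.

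Growth factor depletion went with higher levels of COL4A3, COL4A4 and COL18A1 and with a lower level of COL4A6. COL4A1 and COL4A2 were about as high in depleted replicate 1 as in the controls and 9.75 to 22.6 times the control mean in depleted replicates 2 and 3, and neither passed the test. With limma on log2(normalized count + 1) and Benjamini-Hochberg adjustment over 16988 genes, 4 of the 7 genes were called, 3 higher and 1 lower, where a call needed an adjusted p below 0.05 together with a 2-fold or larger change. Over all genes tested 6.33% were called, 4.36% higher and 1.97% lower. In 6 of the 7 genes the 3 depleted samples did not overlap the 3 controls, against 25.6% of all genes tested. The median log2 fold change was 3.03 for the 7 genes and -0.03 for all genes tested. That median is the value of COL4A1, which was not called, and the 7 values split into 5 above 0 and 2 below. With 3 samples a group the smallest two-sided p of an exact permutation test is 0.1, which each of these genes reached but COL4A1 (0.2).

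COL4A1 (ENSG00000187498, chr13:110148963-110307157, minus strand) codes for the main chain of the most widespread trimer. Its normalized counts were 856.0, 1080 and 812.6 in controls 1 to 3 and 1049, 20670 and 18862 in depleted samples 1 to 3. Depleted replicate 1 lay within the control range, while the other two depleted samples were far above it. The means were 916 ± 144 (SD, n = 3) in controls and 13527 ± 10844 in depleted samples, a log2 fold change of 3.03 ± 1.0 (SE) that was not called by limma (adjusted p = 0.129). Without depleted replicate 1 the log2 fold change was 4.44 and the gene was called (limma, adjusted p = 0.00138). On whole reads recovered from the values, edgeR called it (adjusted p = 0.0478), as did DESeq2 (adjusted p = 1.19e-05).

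COL4A2 (ENSG00000134871, chr13:110305812-110513209, plus strand) codes for the other chain of the same trimer. It had 2141, 2282 and 1928 normalized counts in controls and 2342, 26394 and 20644 in depleted samples. The groups did not overlap, but depleted replicate 1 was only 1.11 times the control mean, against 12.5 and 9.75 times for replicates 2 and 3. From 2117 ± 178 (SD, n = 3) to 16460 ± 12560, the log2 fold change was 2.36 ± 0.81 (SE), not called by limma (adjusted p = 0.139). Without depleted replicate 1 it was 3.47 and called (limma, adjusted p = 0.00259), and with all samples DESeq2 called it (adjusted p = 0.000264) and edgeR did not (adjusted p = 0.0595).

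Depleted replicate 1 also differed from the other depleted samples in markers of cell type, though epithelial markers did not go one way. The basal list summed to 40940, 83490 and 148153 normalized counts in depleted replicates 1 to 3 and the luminal list to between 18326 and 31554. KRT5, a basal keratin, had 562 normalized counts there against 10908 and 14996 in depleted replicates 2 and 3 (controls 12739 to 38503), and EPCAM, an epithelial surface protein, had 152.9 against 2281 and 2486 (controls 887.3 to 3990). KRT17, TP63, KRT8 and ESR1 were also lowest in that depleted sample. KRT14 (980.3 against 193.4 and 306.3), ITGA6 (6817 against 3668 and 3434), ITGB4 (13337 against 7270 and 5894), MUC1 (1032 against 322.6 and 87.2), GATA3 (692 against 284.6 and 185.6) and, by little, KRT19 were highest there, and KRT18 lay in between. The sum of the 8 fibroblast markers was highest in depleted replicate 1, at 33378 against 14609 and 9957 in depleted replicates 2 and 3 and 225 to 451.2 in controls. Of the 7 tested, 6 were called higher (85.7%, against 4.36% of all genes tested). Among them PDGFRA was under the floor of 3 reads in every control, so it is in the table only through the depleted samples. COL1A1, COL1A2 and COL3A1 are also in the fibrillar collagen list described further on. COL1A1 (2000 against 2835 in replicate 2) and THY1 (2.7 against 3.3 and 6.7, not tested) were not highest in depleted replicate 1. The summed smooth muscle and pericyte markers went the other way, at 22143, 41335 and 75150 in depleted replicates 1 to 3 and 596.1 to 651.7 in controls. TAGLN made up most of the depleted sums (13598, 36923 and 68259). Of 5 tested, 3 were called higher (60.0%, against 4.36% of all genes tested). CSPG4 was lower in each depleted sample (23.8, 74.1 and 58.1) than in each control (146.6 to 322.1), and was not called (log2 fold change -2.14, limma adjusted p = 0.0544). RGS5, a pericyte marker, was highest in depleted replicate 1, at 6491 against 188.2 and 219.1. Endothelial markers, 4 of 7 in the table, summed to 167.2 to 1787 in controls and to 1610, 264.9 and 292.9 in depleted samples. PECAM1 held 1582 of the 1610. CDH5 was called higher (log2 fold change 3.37, limma adjusted p = 0.0282), while KDR was lower without overlap and not called (-3.83, adjusted p = 0.193). Leukocyte markers, 2 of 6 in the table, summed to 272.5 to 883.5 in controls and to 656.3, 86.5 and 100.6 in depleted samples. Most of each leukocyte sum was CD14, and PTPRC, not tested, was higher in each depleted sample than in each control. None of these markers was at 0 in a whole group. The part of these markers in the collagen values was not tested, and in bulk RNA more cells of a type and more RNA per cell cannot be told apart.

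COL4A3 and COL4A4, the collagen IV genes with the lowest levels per length in controls, rose. COL4A4 (ENSG00000081052, chr2:227002714-227164453, minus strand) had 42.6, 5.9 and 18.7 normalized counts in controls and 324.9, 797.9 and 711.0 in depleted samples. All 3 depleted samples were far above the highest control, depleted replicate 1 being the lowest of them. The mean went from 22.4 ± 18.7 (SD, n = 3) to 611 ± 252, a log2 fold change of 4.98 ± 0.70 (SE; limma, adjusted p = 0.0051), and the gene was called whichever sample was left out (4.28 to 5.62).

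COL4A3 (ENSG00000169031, chr2:227164624-227314792, plus strand), whose chain carries the antigen of Goodpasture disease, had 5.0, 1.8 and 15.7 normalized counts in controls and 98.9, 225.5 and 114.0 in depleted samples. The control values rest on 4, 3 and 16 reads, close to the floor of 3, and the depleted values on 108, 344 and 51. The groups did not overlap. The mean went from 7.5 ± 7.32 (SD, n = 3) to 146 ± 69.2, with a log2 fold change of 4.40 ± 0.74 (SE; limma, adjusted p = 0.0108) that was 3.15 with a pseudocount of 10 and was no longer called without depleted replicate 2 (4.04, adjusted p = 0.0675).

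The X-linked pair had lower values in the depleted samples, and COL4A6 passed the test. COL4A5 (ENSG00000188153, chrX:108439838-108697545, plus strand) codes for the chain that takes part in both of the less widespread trimers. Its normalized counts were 4238, 3118 and 8531 in controls and 2231, 1605 and 1304 in depleted samples. Each depleted sample was below each control, with control replicate 3 the highest of all. The means were 5296 ± 2857 (SD, n = 3) and 1713 ± 473, and the log2 fold change of -1.53 ± 0.41 (SE) was not called by limma (adjusted p = 0.0695), nor with any sample left out (-1.85 to -1.12). It was called once length and GC content were corrected for (-1.66, limma adjusted p = 0.0291; 0.0712 when the replicate number was a block as well) and by DESeq2 (adjusted p = 0.00738), but not by edgeR (adjusted p = 0.0791).

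COL4A6 (ENSG00000197565, chrX:108155607-108439497, minus strand) codes for the chain that separates the epithelial trimer from the kidney one. It had 1427, 1610 and 3489 normalized counts in controls and 573.9, 126.5 and 93.9 in depleted samples. The groups did not overlap, and depleted replicate 1 kept the most. The mean went from 2176 ± 1141 (SD, n = 3) to 265 ± 268, a log2 fold change of -3.39 ± 0.67 (SE; limma, adjusted p = 0.0212). The call was lost without control replicate 1 (limma, adjusted p = 0.0573), control replicate 2 (0.0543), depleted replicate 2 (0.0887) or depleted replicate 3 (0.0757), with log2 fold changes from -4.19 to -2.89 over the samples left out, and edgeR gave -3.0 (adjusted p = 0.0522).

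COL18A1 (ENSG00000182871, chr21:45405165-45513720, plus strand) rose in every depleted sample. It had 25.1, 27.5 and 83.6 normalized counts in controls and 314.9, 1015 and 619.4 in depleted samples. The lowest depleted sample, replicate 1, was above the highest control, replicate 3. The mean went from 45.4 ± 33.1 (SD, n = 3) to 650 ± 351, a log2 fold change of 3.88 ± 0.60 (SE; limma, adjusted p = 0.00769), called whichever sample was left out (3.48 to 4.42).

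**Figure D2:**
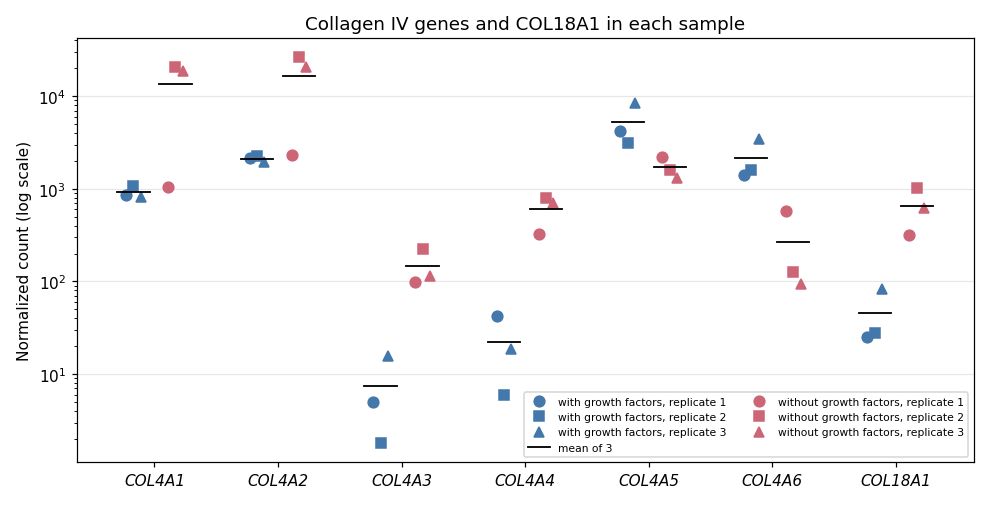
Normalized counts (log scale) of the 7 collagen genes in each of the 3 samples with growth factors (blue) and the 3 without (red), with the replicate number as the shape and the mean of 3 as a bar. COL4A1 and COL4A2 of depleted replicate 1 (circles) sit at 1049 and 2342, beside the controls, while its COL4A3, COL4A4 and COL18A1 sit above every control.

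**Figure D3:**
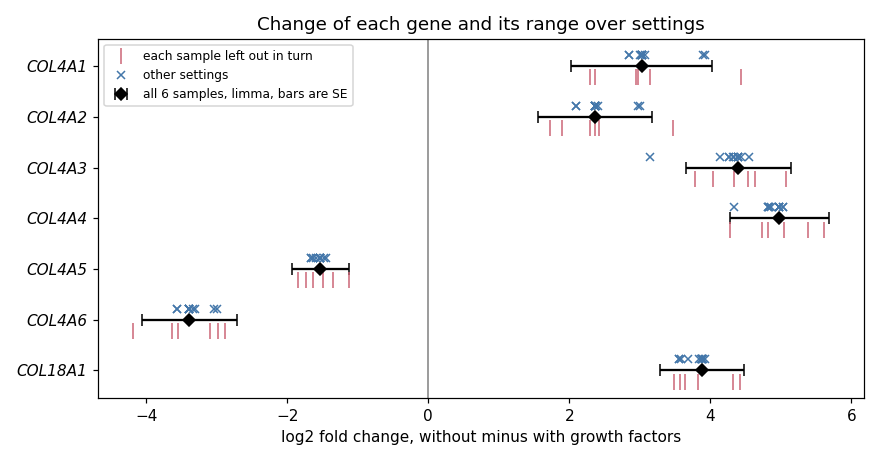
log2 fold change of each gene, depleted minus control, with its standard error (black; limma, 6 samples), with each sample left out in turn (red ticks) and under other settings (blue crosses). No setting run moved a gene to the other side of 0, and the widest range was that of COL4A1, from 2.29 to 4.44.

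Some neighbouring genes bear on what these counts can hold. Libraries were strand-specific, but the strand setting of the counting was not given in the sources used here, and the Gencode v44 spans of COL4A1 and COL4A2 overlap on opposite strands. The paper counted reads with an earlier Gencode release, whose spans were not examined here. COL4A1 and COL4A2 differed by 0.13 to 1.32 on the log2 scale within each sample. Besides the partners, 2 genes of the table overlapped a collagen gene on the opposite strand: MFF-DT across COL4A3 (log2 fold change 0.60, limma adjusted p = 0.643) and SLC19A1 across COL18A1 (0.19, adjusted p = 0.881). Neither was called. Gencode v44 also places the lncRNA ENSG00000273796 on the opposite strand from COL18A1, with its start 222 bases away and no overlap of the spans, and it was not analysed here.

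Whether the genes of a pair moved by the same amount was asked of the ratio within each sample. COL4A6 over COL4A5 was -1.57, -0.95 and -1.29 (log2 ratio) in controls and -1.96, -3.65 and -3.78 in depleted samples. All depleted samples were below all controls, replicate 1 closest to them. In linear terms COL4A6 was at 0.337 to 0.516 of COL4A5 in controls and at 0.257, 0.0788 and 0.072 in depleted samples. The mean log2 ratio went from -1.27 ± 0.31 (SD, n = 3) to -3.13 ± 1.02, a difference of -1.86 (exact two-sided permutation p = 0.1, the smallest possible; 0.3 adjusted over the 3 pairs), and was -2.45 without depleted replicate 1.

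COL4A2 over COL4A1 was 1.32, 1.08 and 1.25 (log2 ratio) in controls and 1.16, 0.35 and 0.13 in depleted samples. Depleted replicate 1 was again with the controls, and the groups overlapped. The means were 1.22 ± 0.12 (SD, n = 3) and 0.55 ± 0.54, a difference of -0.67 (exact permutation p = 0.2, adjusted 0.3). COL4A4 over COL4A3 was 2.86, 1.31 and 0.23 in controls and 1.71, 1.82 and 2.63 in depleted samples, the controls enclosing all 3 depleted samples. Its difference of 0.58 (exact permutation p = 0.5, adjusted 0.5) rests on few control reads and was -0.03 without control replicate 3.

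Levels of different genes were compared per kilobase (kb) of merged exons. In controls COL4A5 was at 263 to 719 normalized counts per kb, COL4A6 at 154 to 376, COL4A2 at 100 to 118 and COL4A1 at 55.4 to 73.7, followed by COL18A1 at 2.96 to 9.88, COL4A4 at 0.496 to 3.6 and COL4A3 at 0.143 to 1.28. COL4A5 and COL4A6 overlapped in range, as did COL18A1 and COL4A4, and COL4A4 and COL4A3, whereas the other neighbours in that order did not. In depleted samples the order of the means was COL4A1 (71.5 to 1410), COL4A2 (122 to 1370), COL4A5 (110 to 188), COL18A1 (37.2 to 120), COL4A4 (27.5 to 67.5), COL4A6 (10.1 to 61.8) and COL4A3 (8.05 to 18.4), and every neighbour overlapped the next. With the length of the longest transcript in place of merged exons, COL4A2 and COL4A6 changed places in controls (means of 328 and 322 per kb), as did COL4A1 and COL4A2 in depleted samples.

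The same levels gave the makeup of the collagen IV transcripts. COL4A5 and COL4A6 held 74.7%, 69.3% and 87.4% of the summed collagen IV level per kb in controls and 52.2%, 4.94% and 4.71% in depleted samples. COL4A1 and COL4A2 held 24.8%, 30.5% and 12.4% in controls and 40.4%, 92.2% and 92.6% in depleted samples. Neither share overlapped between the groups, and depleted replicate 1 lay between the controls and the other two. The share of COL4A5 and COL4A6 went from 77.1 ± 9.26% (SD, n = 3) to 20.6 ± 27.4%, a difference of -56.5 percentage points, and that of COL4A1 and COL4A2 from 22.6 ± 9.27% to 75.0 ± 30.0%, a difference of 52.5 points (exact permutation p = 0.1 each, 0.15 adjusted over 6 such tests). COL4A3 and COL4A4 held 0.102% to 0.586% in controls and 7.43%, 2.85% and 2.73% in depleted samples, highest in replicate 1. The summed level itself was 684, 629 and 1250 per kb in controls and 478, 3010 and 2550 in depleted samples, which overlapped (exact permutation p = 0.4, adjusted 0.48).

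**Figure D4:**
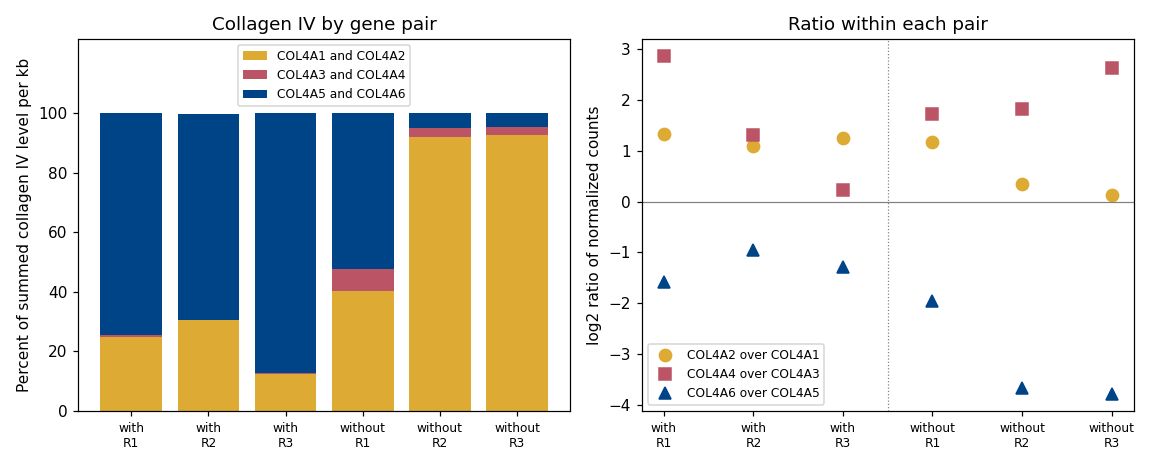
Left, percent of the summed collagen IV level per kb held by each head-to-head pair in every sample, as stacked bars. Right, log2 ratio of normalized counts within each pair in the same samples (with and without growth factors, replicates R1 to R3). COL4A5 and COL4A6 hold 69.3% to 87.4% in controls and 4.94% and 4.71% in depleted replicates 2 and 3, and the ratio of COL4A6 to COL4A5 lies lower in each depleted sample than in each control.

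Among the 29 collagen genes of the table, of which COL5A1, COL6A1 and COL6A2 are no part and were not analysed here, collagen IV held 20.3%, 36.9% and 34.4% of the summed level per kb in controls and 8.2%, 43.1% and 43.7% in depleted samples. The groups overlapped and the difference of 1.13 points had an exact permutation p of 1.0. It was -3.99 points without control replicate 1, -4.58 without depleted replicate 2 and -4.9 without depleted replicate 3. COL18A1 held 0.0878%, 0.191% and 0.271% in controls and 0.637%, 1.71% and 1.26% in depleted samples, which did not overlap (exact permutation p = 0.1, adjusted 0.15). The list of fibrillar and microfibrillar collagens also held the fibril-associated COL12A1, COL14A1 and COL16A1. Of its 8 genes tested, 5 were called higher and none lower (62.5%, against 6.33% of all genes tested), with a median log2 fold change of 4.11. COL5A2, COL6A3 and COL16A1 were not called. COL1A2, a chain of collagen I, went from 137.9, 35.7 and 19.7 normalized counts to 13005, 5971 and 4248 (log2 fold change 7.19, limma adjusted p = 0.0012), and COL3A1, collagen III, from 43.9, 18.7 and 9.8 to 5001, 2882 and 2064 (7.19, adjusted p = 0.000509). Both were highest in depleted replicate 1, the sample with the lowest COL4A1 and COL4A2 of the depleted group. COL14A1 and COL1A1 were called too (log2 fold changes of 6.50 and 4.40), as was COL12A1 (3.82), which is named here after its value was seen.

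The partners of collagen IV in the basement membrane did not move as one. Of 25 listed, 21 were in the table and 19 were tested: 4 were called higher, 1 lower (26.3%, against 6.33% of all genes tested), and the median log2 fold change was 0.06. LAMA3, the alpha chain of laminin-332, which anchors epithelial cells, had 12818, 11464 and 10122 normalized counts in controls and 1167, 3659 and 3354 in depleted samples, with no overlap (log2 fold change -2.23, limma adjusted p = 0.0247). FRAS1, an epithelial basement membrane protein of the Fraser complex, had 769.5, 100.8 and 838.1 in controls and 4437, 4267 and 2779 in depleted samples (3.21, adjusted p = 0.0392). The other 3 genes called higher, with means under 100, were NID2, a nidogen that links laminin to collagen IV, SPARC, a collagen-binding matricellular protein, and NTN1, a netrin. NTN1 was under the floor of 3 reads in every control, so it is in the table only through the depleted samples. In place of 5 genes, 1 was called without control replicate 1, depleted replicate 2 or depleted replicate 3, and 2 without control replicate 2.

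Of 25 listed genes for chain assembly, 23 were tested, 4 were called higher and 1 lower (21.7%, against 6.33% of all genes tested). The median log2 fold change was 0.43, and DESeq2 called 8. LOXL1, a lysyl oxidase relative, had 102.8, 149.4 and 126.9 normalized counts in controls and 1925, 1599 and 1612 in depleted samples, all 3 close together (3.76, limma adjusted p = 0.000469). P3H1, a prolyl 3-hydroxylase, was higher (1.46, limma adjusted p = 0.025), as were P3H4 (1.86, adjusted p = 0.0266) and, at a mean under 100, P3H3. P3H3 was under the floor of 3 reads in every control, so it is in the table only through the depleted samples. P3H2, of the same family, was lower without overlap and not called (-1.34, limma adjusted p = 0.172). LOXL2, a relative of LOXL1, was not called (0.43, limma adjusted p = 0.755). P3H2 and LOXL2 are named here after their values were seen. PLOD3, which hydroxylates and glycosylates collagen lysines, was lower at 746.9 to 876.5 against 1561 to 2594 (-1.38, adjusted p = 0.0255). PXDN, the peroxidasin that makes the sulfilimine crosslinks of collagen IV and is named here after its values were seen, had 6638, 2606 and 3267 in controls and 7875, 19143 and 13843 in depleted samples, and was not called (1.74, adjusted p = 0.07). The 5 calls of the list were 3 without control replicate 1, and 2 without control replicate 2 or any 1 of the depleted samples.

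Of 15 receptor genes tested, 2 were called higher and none lower (13.3%, against 6.33% of all genes tested). The median over the 15 was 1.17, and DESeq2 called 8. The 2 called by limma were ITGA11, a collagen-binding integrin subunit, and ITGB3, with a mean under 100 (limma adjusted p = 0.0151). ITGA11 had 0, 0 and 2.0 normalized counts in controls and 794.5, 159.3 and 123.0 in depleted samples (limma adjusted p = 0.00217). It was under the floor of 3 reads in every control, so it is in the table only through the depleted samples. The integrin genes ITGA1 (1.03, limma adjusted p = 0.315), ITGA2 (1.49, adjusted p = 0.0619) and ITGB1 (1.28, adjusted p = 0.206) were not called. These integrin genes are named here after their values were seen. The receptor calls were 4 without depleted replicate 1, and 1 without control replicate 1, depleted replicate 2 or depleted replicate 3. Of 13 turnover genes tested, 3 were called higher and none lower (23.1%, against 6.33%), with a median of 1.21. MMP2, a gelatinase that cleaves collagen IV, had 132.8, 101.9 and 71.8 in controls and 5181, 12237 and 11625 in depleted samples (6.50, adjusted p = 0.000324), TIMP2, its inhibitor and cofactor of activation, rose by 3.02 on the log2 scale (adjusted p = 0.000731), and MMP16, a membrane-type protease, by 5.46 (adjusted p = 0.00177). The turnover calls were 6 without control replicate 3, 5 with the length and GC correction and 8 with DESeq2.

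**Figure D5:**
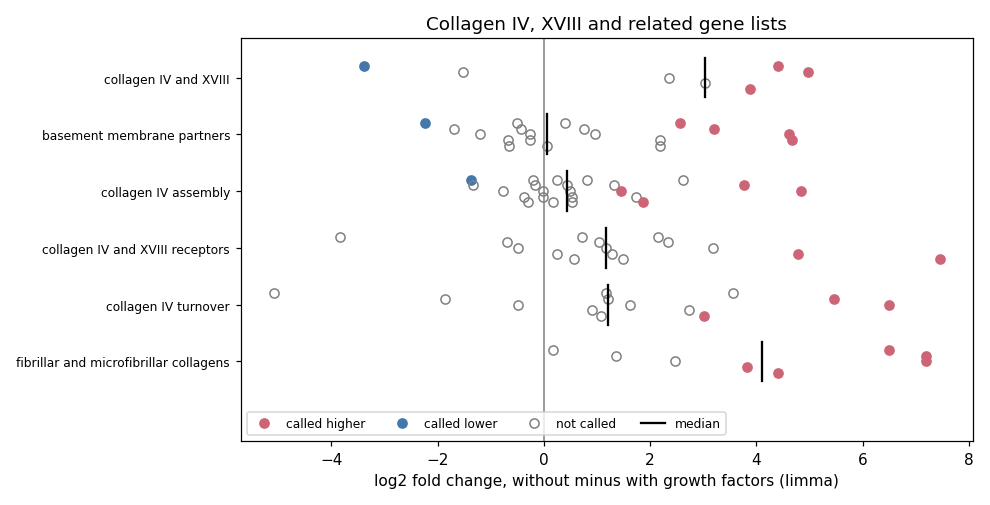
log2 fold change (limma, depleted minus control) of every tested gene among the 7 collagens and in the 5 related lists, with genes called higher in red, called lower in blue, not called open, and the median as a bar. The basement membrane partners lie on both sides of 0 with a median of 0.06. The list of fibrillar and microfibrillar collagens, which also holds fibril-associated ones, lies above 0 with a median of 4.11.

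For each collagen gene, the genes with the most similar pattern were taken as those with the smallest root mean square difference of centred log2 values over the 6 samples, among 11687 or 11688 other genes with a mean of at least 100. COL4A1 was closest to PRUNE2 (0.41), COL4A2 (0.46) and TSPAN2 (0.48), and COL4A2 to MDK (0.36), TSPAN2 (0.41) and PRUNE2 (0.42), with COL4A1 at rank 8. PRUNE2 had 174.2, 112.5 and 193.8 normalized counts in controls and 191.3, 2669 and 2618 in depleted samples, the same low first replicate as both collagen genes. COL4A3 was closest to FN1 (0.43), PCDHGB1 (0.45) and PCDHGB2 (0.46), and COL18A1 to FN1 (0.30), ARID5A (0.44) and PLEKHO1 (0.45). COL4A4 was closest to PRSS23 (0.34), PCDHB14 (0.43) and MAMDC2 (0.50), and was itself at rank 48 for COL4A3, which had a mean under 100 and was not searched. COL4A5 was closest to PITX1-AS1 (0.04), ROBO1 (0.23) and DGKA (0.23), and COL4A6 to PC (0.19), SYT12 (0.40) and LINC00525 (0.47). COL4A5 was at rank 88 for COL4A6, and COL4A6 at rank 7137 for COL4A5. Both were lower in each depleted sample than in each control, by different amounts, and this distance is not scaled to the size of a change. Among the genes whose partner was searched, the partner was in the 3 closest for COL4A1 alone. FN1, which codes for fibronectin, had 5339, 3256 and 10459 normalized counts in controls and 48562, 159901 and 117025 in depleted samples. These likenesses are descriptions over 6 samples of 2 conditions.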

How the data were processed

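RNA-Seq of 6 MCF10A samples, 3 with and 3 without growth factors, was used, with groups and replicate numbers from the labels. The design text of the series gives 2 replicates, while the labels and the table hold 3 samples per condition, which were all used. The deposited table holds a normalized signal for each gene. The authors sequenced stranded libraries of RNA depleted of ribosomal RNA (single-end, 100 bases), used cutadapt 1.6, aligned to hg38 with TopHat2, took counts per gene from HTSeq 0.6 and scaled them by DESeq2 1.8.1 size factors. The strand setting of the counting and the filter on genes with few reads are not given in the sources used here. Every gene of the table had at least 3 reads in at least 3 samples. A gene under 3 reads in every control was therefore present only through the depleted samples and could only be called higher. Among the called genes of the lists these were ITGA11, NTN1, P3H3 and the fibroblast marker PDGFRA. Since 100% of the deposited values were whole multiples of 1 read within 0.01 read, reads could be recovered. On these reads edgeR 4.0.16 (quasi-likelihood, TMM) called 971 genes and DESeq2 1.42.0 called 2112, as alternatives.

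The main test was limma 3.58.1 in R 4.3.3 (trend) on log2(normalized count + 1) for 16988 genes with a mean of at least 10, which called 1076 genes and gave 3400 at an unadjusted p under 0.05. The pseudocount pulls the fold changes of low genes toward 0. Single values were compared with exact permutation tests. Names, positions and lengths came from Gencode v44, which names 18913 of the 19198 identifiers, and promoter windows from RefSeq. The paper's counts used an earlier Gencode release, so the lengths behind the levels per kb are not those of the counting. The limma, edgeR and DESeq2 fits were tested on simulated counts with known changes. Python 3.11.15, pandas 2.3.3, numpy 2.4.6, scipy 1.17.1 and matplotlib 3.10.9 made the tables and figures. The reads carry no molecular identifiers.

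The genes and lists were chosen with earlier results of these data known. Named are all 7 collagens, up to 4 called genes per list with the largest change and a mean of at least 100, every called laminin chain, the 3 most similar genes of each collagen gene, and table genes that overlap one or start within 5 kb. Alternatives were pseudocounts of 0.5 and 10, no filter, a mean of at least 50, rescaling, quantile normalization, no trend, a correction for length and GC content, the replicate number as a block, and each sample left out.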

Additional observations from a re-analysis of the deposited data

How the results depend on the processing

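The log2 fold change of each of the 7 genes kept its sign under the 18 settings besides the one reported. COL4A4 and COL18A1 were called under all 18. The 7 genes' calls numbered 4, and 7 with DESeq2, and ranged from 2 (without depleted replicate 2) to 6 (without depleted replicate 1) with single samples left out. The 1076 calls over the whole table were 2112 with DESeq2, 688 under the replicate block with the length and GC correction, and from 453 (without depleted replicate 2) to 2474 (without control replicate 3) with single samples left out. The replicate block alone gave 967 calls over the table, 2 in place of 5 in the assembly list, and 5 of the 7 genes, with COL4A1 called (log2 fold change 3.03, limma adjusted p = 0.0297), a call lost when the length and GC correction was added (2.85, adjusted p = 0.14). Deviations of same-numbered samples from their group means had correlations of -0.073, -0.283 and -0.323, and no sample correlated best with its own number. With 3 samples per group, such correlations cannot decide whether same-numbered samples were handled together. The difference in the log2 ratio of COL4A4 to COL4A3 ran from -0.03 (without control replicate 3) to 1.28 with single samples left out. The difference in the collagen IV share of all collagen genes was -1.06 points with no length scaling and ran from -4.9 to 12.9 with single samples left out. The cause of these changes was not tested. Control values of COL4A3 and COL4A4 are limited by depth.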
